A study of Homo sapiens with 24 samples.

Results

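The keratin genes were described in 4 bladder cancer cell lines with and without mitomycin C. They are the protein-coding genes of the count table whose GENCODE 29 symbol is KRT, a number and an optional letter, with the keratin-associated KRTAP genes left out. The rule found 55 genes of 58381, of which 29 encode type I and 26 encode type II keratins. On build GRCh38, 28 of them lie on chromosome 17 and 27 on chromosome 12, where KRT18 is the type I gene beside the type II cluster. Of the 55 genes, 26 held enough reads to be tested and 24 reached a mean of 1 CPM (TMM-scaled counts relative to library size) in at least 1 group. The other 29 were not tested; they averaged at most 0.505 CPM in any group, and KRT26 had no read in any library.

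Messenger RNA was sequenced from T24, 5637, TCC-SUP and CLS-439 cells, each a single established line that the labels give as human bladder cancer. Each line was exposed to 75 µM mitomycin C (MMC), a drug that crosslinks DNA strands, for 1 h, or left untreated (NT), and RNA was taken 15 h after treatment. The treatment label of the exposed samples reads MCC and was taken as MMC because the protocol names mitomycin C. Each of the 8 groups has 3 libraries, numbered 1, 3 and 4, which the series calls biological replicates, and no group carries any other stated agent or allele.

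Keratins are the intermediate filament proteins of epithelial cells. A filament needs a type I (acidic) and a type II (basic) partner, and an unpaired keratin protein is usually degraded. Simple epithelia pair KRT8 with KRT18, with KRT7 and KRT19 added in ducts and in urothelium, while the basal cells of layered epithelia pair KRT5 with KRT14. KRT6A, KRT6B, KRT16 and KRT17 are known for their rise in wounded or stressed epithelium, KRT13 and KRT4 belong to the upper layers of wet mucosa, and KRT31 to KRT40 and KRT81 to KRT86 build hair and nail. In pathology, KRT5 and KRT14 mark basal bladder tumours and KRT20 marks the luminal umbrella cell.

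Libraries held 13791428 to 28821665 counted reads, and keratin genes took 0.213% to 0.717% of them. The CLS-439 libraries stood apart from all others: mitochondrial genes took 0.0238% to 0.0283% of their reads, against 3.21% to 7.40% in the other lines, and processed pseudogenes 2.75% to 3.05%, against 0.143% to 0.228%. The 147 keratin pseudogenes summed to 7.58% to 9.58% of the keratin CPM in CLS-439 and 0.266% to 2.29% elsewhere, so the keratin levels of CLS-439 carry an uncertainty of assignment that counts cannot settle, and its part in the results was not tested. Treated replicate 1 of T24, 5637 and TCC-SUP lay nearer to the untreated mean than the other treated libraries did: the root mean square log2 distance over genes was 0.693, 0.630 and 0.454 for these libraries, against 0.744 to 0.837, 0.794 to 0.870 and 0.660 to 0.766 for the others of the same line. Results that rest on those libraries are given with and without them.

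Of 10 epithelial marker genes that are not keratins (among them EPCAM and CDH1), 2 reached 1 CPM in MMC-treated and 1 in untreated T24. The number was 10 treated and 10 untreated for 5637, 5 treated and 6 untreated for TCC-SUP, and 5 treated and 4 untreated for CLS-439. All 10 fibroblast markers reached 1 CPM in TCC-SUP, where they summed to 4676 to 6836 CPM in treated and 8650 to 12137 CPM in untreated libraries. In CLS-439, 3 of the 10 reached it and the list summed to 994 to 1236 CPM treated and 1537 to 1880 CPM untreated. Nearly all of that sum was COL1A1 (1057 ± 129 CPM treated and 1702 ± 180 CPM untreated), so it does not speak for the list. In 5637 the list summed to at most 121 CPM and in T24 to at most 8.39 CPM. In TCC-SUP 6 leukocyte markers summed to 17.8 to 24.7 CPM in treated and 35.004 to 41.97 CPM in untreated libraries (MS4A1 had no read). Only 2 of the 6, PTPRC and CD14, reached 1 CPM. The 5 endothelial markers summed to 15.9 to 48.4 CPM in treated and 44.1 to 62.4 CPM in untreated libraries. Of these only TEK reached 1 CPM (27.9 ± 17 CPM treated and 52.8 ± 9.1 CPM untreated). In CLS-439 the endothelial list summed to 12.6 to 15.1 CPM treated and 17.4 to 18.3 CPM untreated, again mostly TEK. These sums rest on 1 or 2 genes and do not speak for the whole lists. Of 8 urothelial markers, between 3 and 5 reached 1 CPM in each group, and UPK3A, a uroplakin of the umbrella cell, had no read in treated or untreated T24 and 5637. The part of these other marker genes in the keratin results was not tested. In bulk libraries, fewer expressing cells and less RNA per cell cannot be told apart.

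Several keratins are so alike that their counts depend on how reads with several matches were handled, which is not given in the sources used here. Of all 50-base words in the principal transcript of KRT6B, 52.9% occur in no other gene of GENCODE 29; the share is 60.9% for KRT6A, 46.4% for KRT6C, 55.4% for KRT81, 59.5% for KRT86, 67.3% for KRT8 and 68.2% for KRT18. KRT8 shares words with 37 and KRT18 with 43 other genes, most with the pseudogenes KRT8P3 and KRT18P11, while 99.0% of the words of KRT7, 98.2% of KRT19 and 96.0% of KRT5 were their own. The coding bases of KRT6B and KRT6A are 97.5% identical (42 of 1692 aligned bases differ), and those of KRT86 and KRT81 94.4% (80 of 1431). The 90-base stretch within 1 coding exon that holds the most differences is shown for KRT6B and KRT6A, since the counts of each gene rest on such bases; the capitals mark the bases that differ within the pair. The KRT6B stretch lies in exon 2 at chr12:52450416-52450505 and the KRT6A stretch in exon 2 at chr12:52491532-52491621, both on the minus strand of GRCh38.
KRT6B: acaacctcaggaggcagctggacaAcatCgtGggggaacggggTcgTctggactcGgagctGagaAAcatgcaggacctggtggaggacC
KRT6A: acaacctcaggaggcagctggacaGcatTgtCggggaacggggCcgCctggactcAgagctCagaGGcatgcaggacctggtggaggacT
The pair differs at 10 of these 90 bases.

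The untreated lines had 4 different keratin profiles. Levels are set against each other per length, as CPM per kb of the principal transcript. In untreated T24, KRT7, a type II keratin of ducts and urothelium, made up 44.3% ± 4.4 of all keratin CPM per kb, KRT8 23.4% ± 1.2, KRT18 21.3% ± 0.89 and KRT19 8.4% ± 1.8 (SD, n = 3 in each group). In untreated 5637, the share was 27.7% ± 1.0 for KRT7, 20.9% ± 0.27 for KRT19, 15.3% ± 0.55 for KRT8, 12.1% ± 0.60 for KRT18, 11.7% ± 0.33 for the basal keratin KRT5 and 8.69% ± 0.83 for KRT17. T24 therefore held simple keratins almost alone, while 5637 held simple and basal keratins together.

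In untreated TCC-SUP, KRT18 made up 59.8% ± 3.2, the hair keratin KRT81 21.3% ± 2.7, KRT80 7.13% ± 0.38, KRT19 5.24% ± 0.56 and KRT8, the usual partner of KRT18, 3.44% ± 0.14. In untreated CLS-439, KRT7 made up 64.2% ± 2.1, KRT8 19.4% ± 1.4, KRT18 6.18% ± 1.3 and KRT17 4.29% ± 0.25. The sum of type I over the sum of type II CPM per kb was 2.03 ± 0.26 in untreated TCC-SUP, 0.733 ± 0.032 in 5637, 0.469 ± 0.071 in T24 and 0.150 ± 0.0070 in CLS-439. TCC-SUP was the line with more type I than type II transcript. With the length of all exons in place of the principal transcript these ratios were 1.14, 0.902, 0.627 and 0.199 in the same order, and 1 untreated TCC-SUP library then lay at 0.962.

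**Figure D1:**
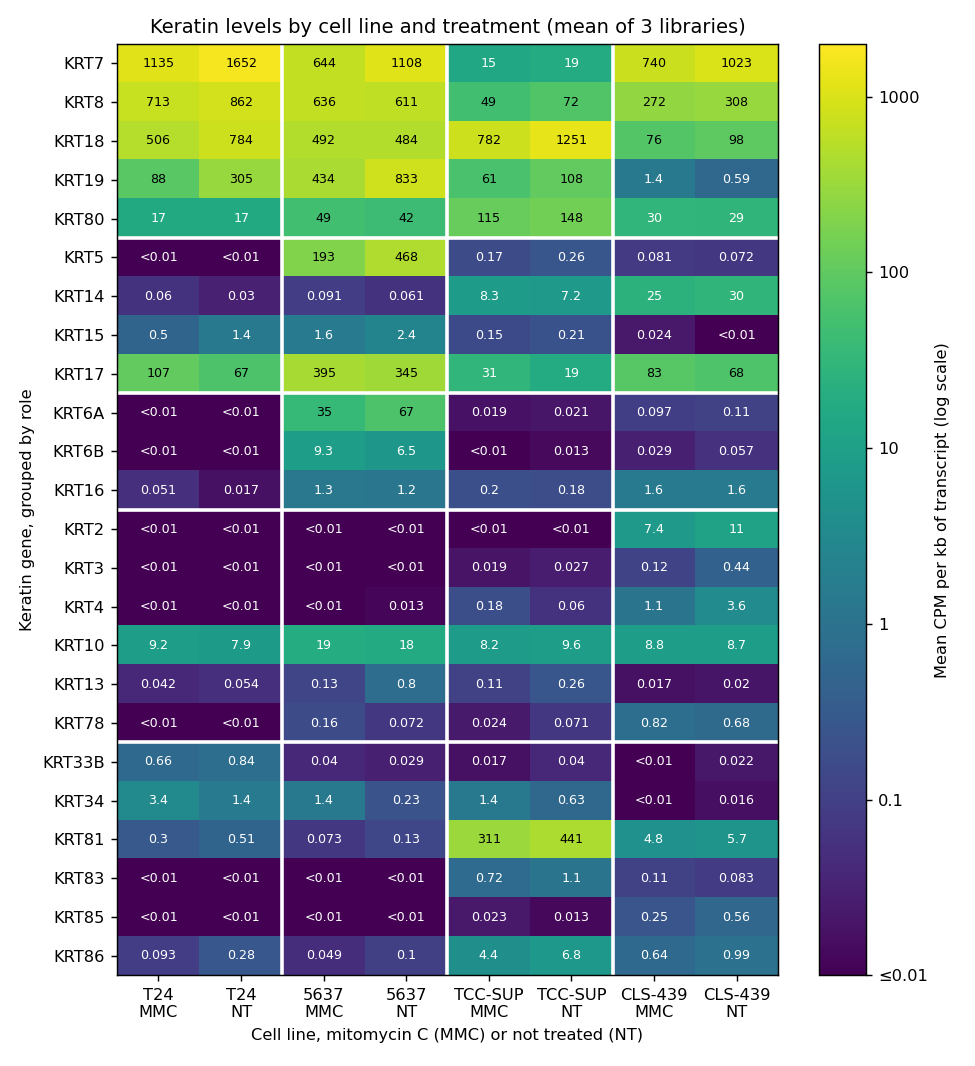
Mean CPM per kb of transcript (colour on a log scale, values printed) of the 24 keratin genes that reached 1 CPM in a group, in rows grouped by role, for the 8 groups in columns with MMC left of NT. KRT7 falls to 19 CPM per kb in untreated TCC-SUP against 1023 to 1652 in the other untreated lines, and KRT5 and KRT6A stand out in 5637 and KRT81 in TCC-SUP.

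**Figure D2:**
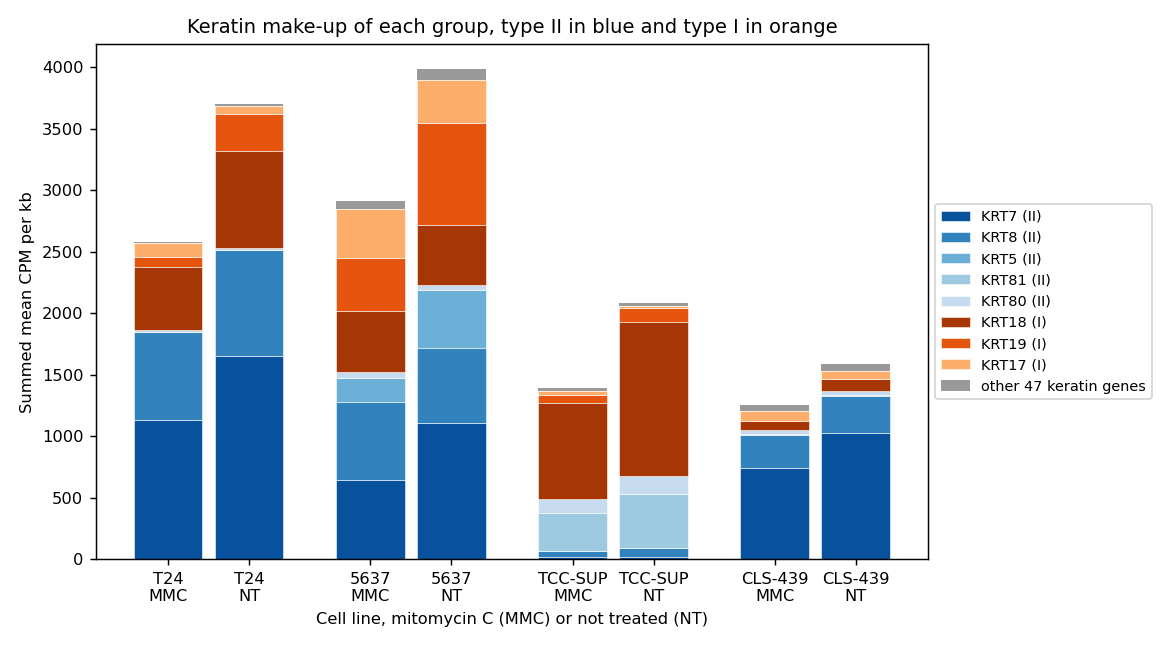
Stacked bars of mean CPM per kb (linear axis from 0) by group, with type II genes in blue, type I genes in orange and the other 47 keratin genes in grey. At these transcript lengths the blue part is the larger in T24, 5637 and CLS-439, and the orange part in TCC-SUP; with the length of all exons the ratio in treated 5637 is 1.10.

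Between untreated lines most tested keratins differed. Of the 26 tested, 17 passed an adjusted p of 0.05 (edgeR's quasi-likelihood test, Benjamini-Hochberg over 20820 genes) between 5637 and T24, where 46.6% of all genes did, and 21 between TCC-SUP and T24 (51.3% of all genes). The number was 20 between TCC-SUP and 5637 (56.6%), 21 between CLS-439 and T24 (72.3%), 21 between CLS-439 and 5637 (73.7%) and 21 between CLS-439 and TCC-SUP (77.0%). The share of tested keratins was 65.4% to 80.8%, above that of all genes in each of the 6 pairs. For CLS-439 against TCC-SUP the shares were close, 80.8% against 77.0%. Some keratins, such as KRT2 in CLS-439 and KRT6A in 5637, entered the test through the line where they are high. A difference between lines was built into their choice, so these shares are not read as a result about keratins.

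Among the simple keratins, KRT7 reached 3374, 3132 and 2185 CPM in untreated T24, 2207, 1822 and 1804 in 5637, 1646, 1971 and 1765 in CLS-439 and 30.97, 31.5 and 35.3 in TCC-SUP. The first 3 lines did not differ from their neighbour in this order (adjusted p = 0.11 and 0.73), while CLS-439 exceeded TCC-SUP by 5.78 ± 0.35 log2 units (SE; adjusted p = 5.3e-13). KRT8 stood in the order T24, 5637, CLS-439 and TCC-SUP (1832 ± 174, 1299 ± 131, 655 ± 44 and 153 ± 23 CPM), and each step passed the test. KRT18 instead stood in the order TCC-SUP, T24, 5637 and CLS-439 (1954 ± 315, 1224 ± 128, 757 ± 97 and 153 ± 30 CPM), also with each step past the test. The ratio of KRT18 to KRT8 per kb was accordingly 17.4 ± 0.21 in untreated TCC-SUP, 0.909 ± 0.0089 in T24, 0.793 ± 0.057 in 5637 and 0.317 ± 0.046 in CLS-439. With the length of all exons it was 27.3, 1.43, 1.25 and 0.498 in the same order, so that whether T24 and 5637 held more KRT18 or more KRT8 depends on the length used. The KRT8 and KRT18 genes share 525 exon bases on opposite strands, and the strand setting of the counting is not given, so reads from that stretch cannot be told apart.

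KRT19, a small type I keratin of ducts and urothelium, spanned the widest range of the simple group. It had 1252, 1143 and 1078 CPM in untreated 5637, 375, 451 and 447 in T24, 147, 151 and 154 in TCC-SUP. CLS-439 had 1.25, 0.472 and 0.721 CPM, and every step of this order passed the test. KRT80, a type II keratin linked to cell junctions, was highest in TCC-SUP (572 ± 51 CPM) and did not differ between neighbours among 5637, CLS-439 and T24 (162 ± 23, 112 ± 7.9 and 65.1 ± 18 CPM, adjusted p = 0.30 and 0.14). KRT20, the umbrella cell keratin, had 21 reads in all 24 libraries together and was not tested.

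The basal and stress keratins separated the lines further. KRT5 had 1258, 1181 and 1113 CPM in untreated 5637, while the next line, TCC-SUP, had 0.502, 0.291 and 1.19 CPM. KRT14, its classical partner, was highest in CLS-439 (49.5 ± 18 CPM), followed by TCC-SUP (11.99 ± 3.4 CPM), and averaged 0.102 CPM in 5637. The line with abundant KRT5 thus held almost no KRT14 transcript; KRT17 (569 ± 26 CPM) and KRT15 (12.7 ± 0.97 CPM), the other type I basal keratins, were highest there. KRT6A (150, 178 and 139 CPM) and KRT6B (16.1, 13.3 and 14.8 CPM) were also high in untreated 5637 and reached at most 0.248 and 0.129 CPM on average in the other untreated lines. T24 had no read of KRT6A in its 3 untreated libraries, which at a limit of 3 reads over the group makes 5637 at least 3845-fold higher.

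Keratins of other epithelia appeared line by line. In TCC-SUP the hair keratin KRT81 had 802, 873 and 876 CPM untreated, 6.28 ± 0.26 (SE) log2 units above CLS-439, the next line; its neighbours KRT86 (15.1 ± 0.91 CPM) and KRT83 (2.08 ± 0.55 CPM) were highest there too. The ratio of KRT86 to KRT81 reads in untreated TCC-SUP was 0.0185, 0.0164 and 0.0184, so counts of KRT86 in this line are few beside those of its near copy. CLS-439 alone exceeded 1 CPM untreated for KRT2 (26.8 ± 3.9 CPM), KRT4 (9.19 ± 4.3), KRT85 (1.37 ± 0.28), KRT78 (1.22 ± 0.26) and KRT3 (1.02 ± 0.34), keratins of skin, mucosa, hair and cornea. KRT10, a keratin of the upper epidermis, was the most even member, with 37.7 ± 3.5 CPM in untreated 5637 and 20.3 ± 2.5, 18.6 ± 3.4 and 16.7 ± 0.57 in TCC-SUP, CLS-439 and T24, which did not differ between neighbours (adjusted p = 0.47 and 0.42).

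After MMC the called keratins were mostly lower, and 1 gene, KRT34, was higher. Of 26 tested, 1 keratin rose and 3 fell in T24, where 15.2% of all genes rose and 13.4% fell (28.6% called). In 5637, 1 rose and 5 fell, where 15.9% of all genes rose and 13.6% fell (29.4% called). In TCC-SUP, 0 rose and 2 fell, where 9.57% of all genes rose and 11.1% fell (20.7% called, with 8 keratins at an unadjusted p under 0.05). In CLS-439 edgeR called 0 keratins (0.62% of all genes were called, 0.298% higher and 0.322% lower), with 5 at an unadjusted p under 0.05, and DESeq2 called 1. The share of keratins called, 15.4%, 23.1%, 7.69% and 0%, was in each line below that of all genes. Both shares include genes with few or no reads in the line, which could hardly be called. At 1 CPM or more in the line, 3 of 10 keratins were called in T24 and 6 of 14 in 5637. The count was 2 of 13 in TCC-SUP and 0 of 16 in CLS-439. The share of all genes called at that level is not given here, so no lower share is claimed for expressed keratins. Among members at 1 CPM or more in the line, 7 of 10 had a negative log2 fold change in T24, 6 of 14 in 5637, 10 of 13 in TCC-SUP and 11 of 16 in CLS-439, with medians of -0.32, 0.04, -0.48 and -0.25, against 0.01, 0.00, -0.01 and -0.01 over all genes at that level.

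**Figure D3:**
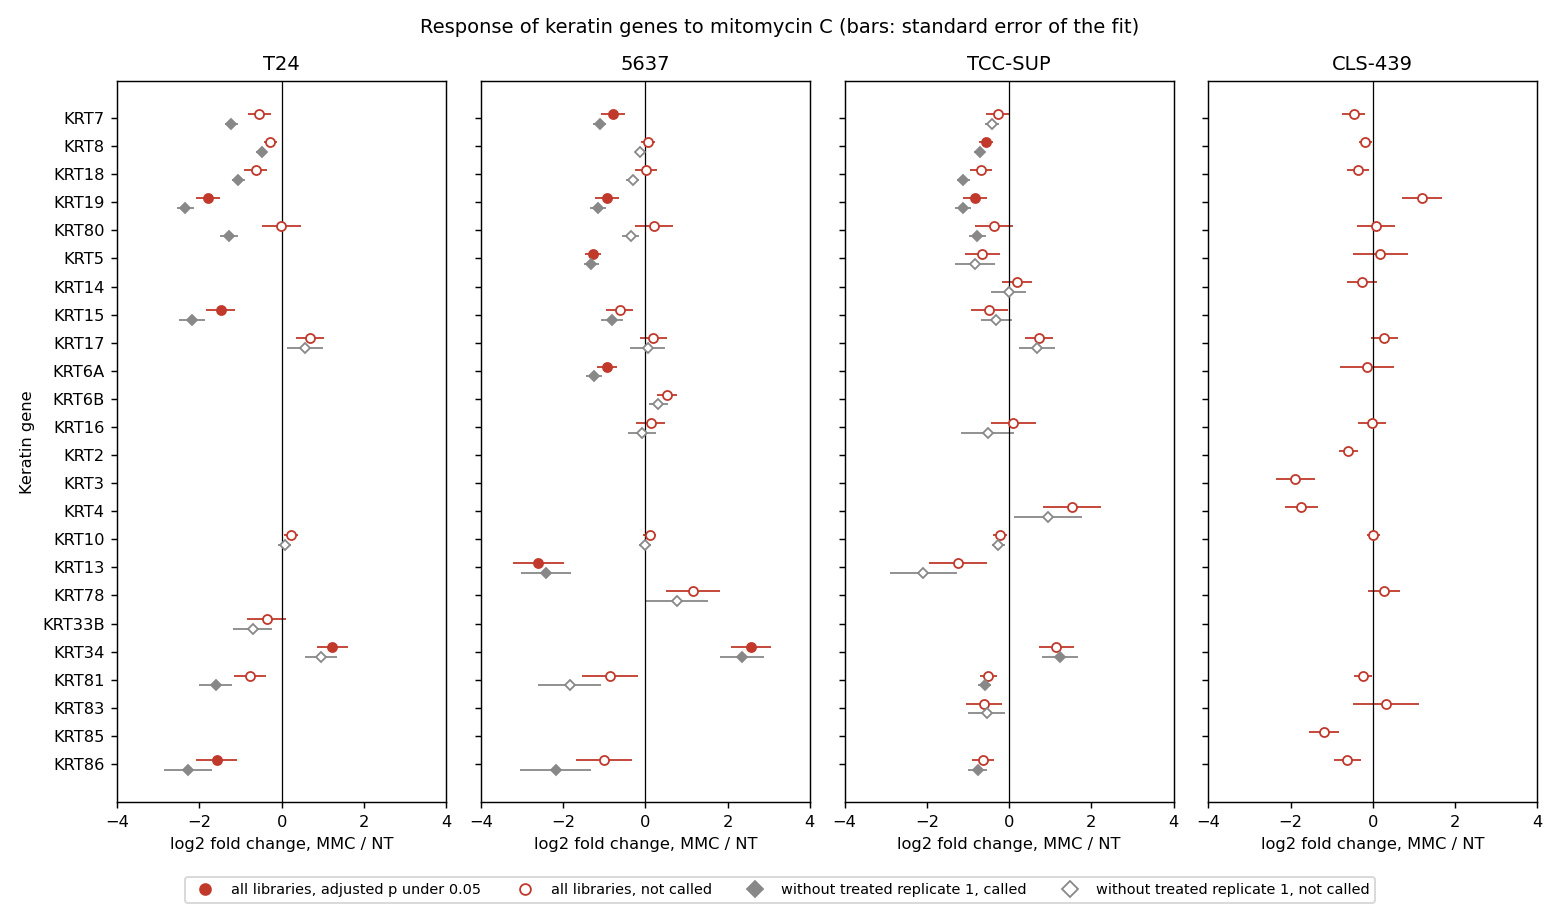
Log2 fold change (MMC over NT) with its standard error for keratins at 0.2 CPM or more in the line, in 1 panel per line. Circles use all libraries and diamonds leave out treated replicate 1 of T24, 5637 and TCC-SUP, and filled symbols passed an adjusted p of 0.05. KRT19 lies left of 0 in T24, 5637 and TCC-SUP, KRT34 right of 0 in the same lines.

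KRT19 (ENSG00000171345, chr17:41523617-41528308, minus strand) was the keratin called in 3 of 4 lines. In T24 it had 203, 66.3 and 99.2 CPM after MMC, against 375, 451 and 447 CPM untreated, which is -1.79 ± 0.30 on the log2 scale (with its SE; adjusted p = 8.8e-05). In 5637 the values were 743, 521 and 544 CPM after MMC and 1252, 1143 and 1078 CPM untreated (-0.94 ± 0.29, adjusted p = 0.016). In TCC-SUP they were 114, 64.5 and 76.3 CPM after MMC and 147, 151 and 154 CPM untreated (-0.82 ± 0.29, adjusted p = 0.047). All treated libraries lay below all untreated ones in these 3 lines, and replicate 1 was the highest treated library in each. The call held without any single library in T24, but was lost in 5637 without untreated replicate 1 or treated replicate 3 or 4 (log2 fold changes of -0.89, -0.85 and -0.87), and in TCC-SUP without any library but treated replicate 1 (-0.85 to -0.66, adjusted p up to 0.21). In CLS-439, where KRT19 had only 24 to 49 reads per treated and 9 to 29 per untreated library, the values were 3.06, 1.17 and 1.69 CPM after MMC and 1.25, 0.472 and 0.721 CPM untreated, with overlap and no call (1.20 ± 0.48, adjusted p = 0.48).

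The other simple keratins moved less. KRT7 (ENSG00000135480, chr12:52232520-52252186, plus strand) in 5637 had 1542, 951 and 898 CPM after MMC and 2207, 1822 and 1804 CPM untreated, and was called lower (-0.78 ± 0.29, adjusted p = 0.043). That call was lost without any 1 of the 5637 libraries other than treated replicate 1 (-0.84 to -0.64, adjusted p up to 0.17). In T24, KRT7 had 3519, 1223 and 1229 CPM after MMC, against 3374, 3132 and 2185 CPM untreated: treated replicate 1 lay above all untreated libraries and the other treated libraries below all of them, and the gene was not called (-0.54 ± 0.29, adjusted p = 0.17). Without treated replicate 1 of T24, 5637 and TCC-SUP, a choice made after the data were seen, it was called (-1.23 ± 0.16, adjusted p = 9.5e-07).

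KRT8 fell in TCC-SUP, to 124, 102 and 85.8 CPM after MMC, against 155, 129 and 175 CPM untreated (-0.56 ± 0.17, adjusted p = 0.018), a call lost without treated replicate 3 or 4 or untreated replicate 4 (-0.55, -0.44 and -0.45, adjusted p up to 0.11). KRT18 in TCC-SUP had 1836, 873 and 957 CPM after MMC and 1991, 1622 and 2248 CPM untreated, and missed the threshold (-0.68 ± 0.27, adjusted p = 0.083). In T24, KRT18 had 1203, 579 and 589 CPM after MMC and 1261, 1330 and 1083 CPM untreated (-0.63 ± 0.27, adjusted p = 0.089). In both lines it is treated replicate 1 that lies among the untreated libraries. In 5637 treated and untreated libraries overlapped for both genes, with log2 fold changes of 0.06 ± 0.16 for KRT8 and 0.02 ± 0.27 for KRT18.

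Without treated replicate 1 of T24, 5637 and TCC-SUP, a setting chosen after the data were seen, more keratins passed. These libraries lay nearest to the untreated mean over genes. More calls and larger folds are therefore built into leaving them out, and are not further support for a response. In T24, 0 rose and 9 fell (37.0% of all genes were called): KRT7, KRT8, KRT15, KRT18, KRT19, KRT23, KRT80, KRT81 and KRT86. KRT34 was no longer called there (0.96, adjusted p = 0.057). In 5637, 1 rose and 7 fell, with KRT86 and KRT15 added (39.1% of all genes called). In TCC-SUP, 1 rose, KRT34, and 6 fell, KRT8, KRT18, KRT19, KRT80, KRT81 and KRT86 (32.4% of all genes called). In CLS-439, whose libraries were all kept, KRT3 and KRT4 then passed as lower (2.33% of all genes called). KRT18 then fell by 1.06 on the log2 scale in T24 and by 1.11 in TCC-SUP (SE 0.16 in both, adjusted p = 6e-06 and 4.5e-06).

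**Figure D4:**
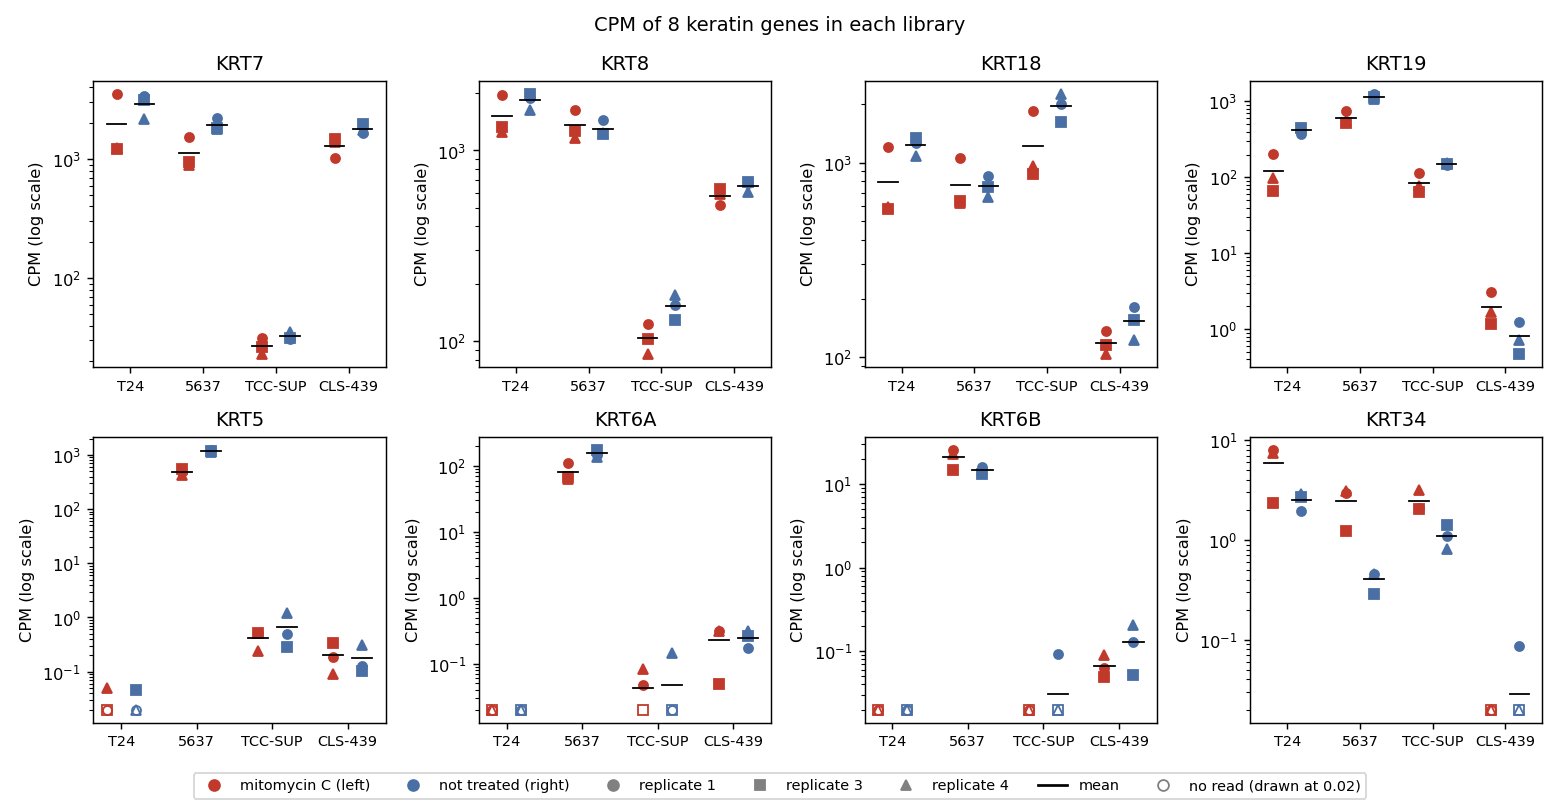
CPM (log scale, own range in each panel) of 8 keratin genes in every library, with MMC in red left of NT in blue for each line, a marker shape for each replicate number and a line at the mean; libraries with no read are drawn open at 0.02. The red circles, treated replicate 1, are the highest treated values of KRT7, KRT18 and KRT19 in T24, 5637 and TCC-SUP.

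The ratio of KRT18 to KRT8 per kb in T24 was 0.836, 0.590 and 0.638 in treated and 0.911, 0.917 and 0.899 in untreated libraries, without overlap (exact permutation test, two-sided p = 0.10, the smallest that 3 against 3 libraries can give, so that no threshold of 0.05 could be passed). Treated replicate 1 lay nearest to the untreated libraries. In 5637, TCC-SUP and CLS-439 treated and untreated libraries overlapped (exact permutation p = 0.70, 0.70 and 0.50). The sum of type I over type II per kb was 0.860 ± 0.051 in treated and 0.733 ± 0.032 in untreated 5637, and 0.186 ± 0.0062 in treated and 0.150 ± 0.0070 in untreated CLS-439, with no overlap in either line. With the length of all exons the 5637 ratio was 1.10 ± 0.065 in treated and 0.902 ± 0.034 in untreated libraries, on opposite sides of equal levels, and the treated TCC-SUP libraries lay between 0.742 and 1.24. It was 0.395 ± 0.033 in treated and 0.469 ± 0.071 in untreated T24, and 1.77 ± 0.44 in treated and 2.03 ± 0.26 in untreated TCC-SUP, with overlap in both.

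Among the basal keratins, KRT5 (ENSG00000186081, chr12:52514575-52520687, minus strand) fell in 5637, the line that expresses it. It had 493, 547 and 429 CPM after MMC, against 1258, 1181 and 1113 CPM untreated (-1.27 ± 0.20, adjusted p = 3.1e-05), with no overlap and a call that held without any single library. KRT15, a type I keratin of basal and progenitor cells, fell in T24 to 4.66, 0.955 and 2.24 CPM, against 6.78, 7.77 and 7.17 CPM untreated (-1.48 ± 0.36, adjusted p = 0.0029), again without overlap. In 5637 it had 9.92, 6.27 and 8.59 CPM after MMC and 11.6, 13.4 and 13.1 CPM untreated, with no overlap and no call (-0.62 ± 0.33, adjusted p = 0.17).

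KRT17, the most abundant basal keratin in T24, was not called in any line. It had 206, 182 and 141 CPM after MMC and 49.3, 175 and 106 CPM untreated in T24 (0.68 ± 0.34, adjusted p = 0.14). In TCC-SUP it had 52.8, 58.3 and 40.9 CPM after MMC and 42.3, 13.9 and 36.1 CPM untreated (0.72 ± 0.34, adjusted p = 0.15). Its log2 fold change was positive in all 4 lines, with 0.20 ± 0.33 in 5637 and 0.28 ± 0.34 in CLS-439, and treated and untreated libraries overlapped in each. Without untreated replicate 3 of T24 the T24 value was 1.17 and passed the test (adjusted p = 0.016).

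Of the stress keratins of 5637, KRT6A fell and KRT6B was not called. KRT6A had 109, 69.1 and 64.1 CPM after MMC and 150, 178 and 139 CPM untreated (-0.94 ± 0.24, adjusted p = 0.0056), a call that held without any single library. KRT6B had 25.8, 14.8 and 22.8 CPM after MMC and 16.1, 13.3 and 14.8 CPM untreated, and was not called (0.52 ± 0.25, adjusted p = 0.13). The number of KRT6B reads per KRT6A read was 0.236, 0.215 and 0.356 after MMC and 0.108, 0.0749 and 0.106 untreated, without overlap (exact permutation test, two-sided p = 0.10, the smallest possible here); this ratio was chosen after its values were seen. Summed with KRT6C, the 3 genes fell by 0.73 ± 0.21 on the log2 scale (adjusted p = 0.012). KRT16, the usual partner of the KRT6 proteins, had 2.14 ± 0.42 CPM after MMC and 1.96 ± 0.29 CPM untreated.

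**Figure D5:**
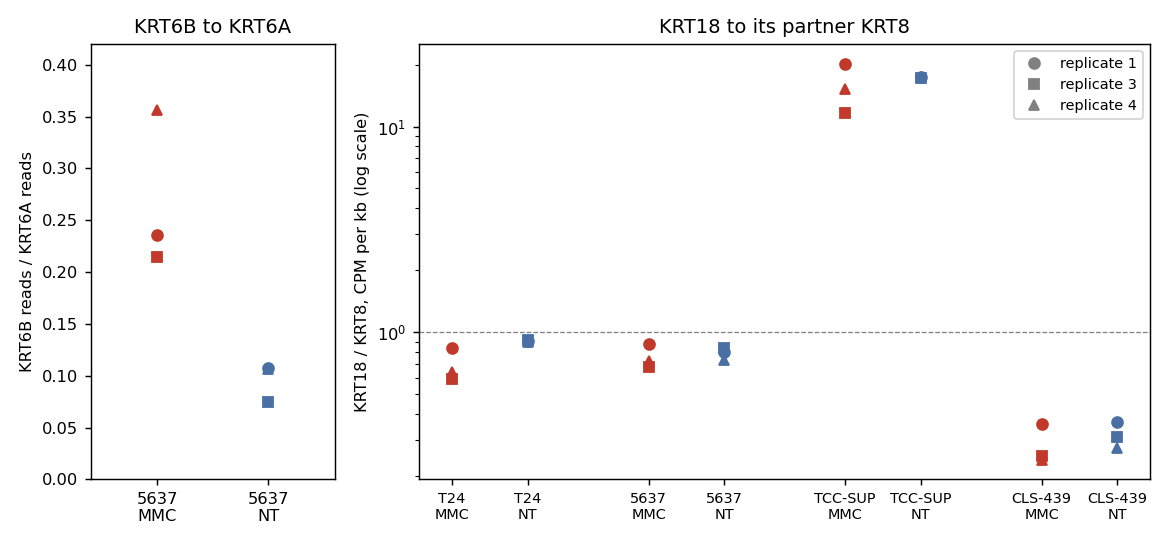
KRT6B reads per KRT6A read in 5637 (left, linear axis) and KRT18 over KRT8 in CPM per kb in each line (right, log axis, dashed line at equal levels), with MMC in red left of NT in blue and a marker for each replicate number. The treated 5637 libraries sit at 0.215 to 0.356, above the untreated ones, and KRT18 over KRT8 lies above 11 in every TCC-SUP library.

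KRT34 (ENSG00000131737, chr17:41377650-41382403, minus strand), a type I hair keratin, was the gene that rose. In 5637 it had 2.99, 1.24 and 3.08 CPM after MMC and 0.457, 0.290 and 0.460 CPM untreated (2.57 ± 0.49, 5.95-fold, adjusted p = 0.00038), from 29 to 64 reads per treated and 6 to 10 per untreated library. In T24 it had 8.07, 2.37 and 7.38 CPM after MMC and 1.98, 2.70 and 2.87 CPM untreated (1.23 ± 0.38, adjusted p = 0.018), with treated replicate 3 inside the untreated range. That call was lost without treated replicate 1 or 4 or untreated replicate 1 (0.96, 1.04 and 1.06, adjusted p up to 0.086). In TCC-SUP it had 2.10, 2.07 and 3.18 CPM after MMC and 1.09, 1.41 and 0.808 CPM untreated, without overlap and just short of the threshold (1.15 ± 0.42, adjusted p = 0.058). CLS-439 had no treated read of it. The 5637 rise held without any single library. Its cluster neighbour KRT33B had 1.52, 0.455 and 1.20 CPM in treated and 0.814, 1.74 and 1.51 CPM in untreated T24 and was not called (-0.37 ± 0.48, adjusted p = 0.63).

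Promoter sequences from RefSeq (GRCh38.p14, 250 bases before to 50 after the start, 1 per symbol) were matched for 34 of the 55 keratins, KRT34 among them. TATAAA, the TATA box, occurred on either strand in 20 of 34 (58.8%), against 3264 of 27305 promoters of all genes, and in 15 of the 34 it began 35 to 20 bases before the start. CCAAT occurred in 17 of 34, against 35.7% of all, and GGGCGG, the SP1 motif, in 6 of 34 (17.6%, against 44.6%). The AP-1 motif TGANTCA was in 0 of 34, against 7.76% of all. These shares come mostly from keratins with little or no transcript here, since 9 of the 34 belong to the 24 genes that reached 1 CPM in a group. Of those 9, TATAAA occurred in 4 (44.4%), CCAAT in 3 (33.3%, below the share of all promoters) and GGGCGG in 1. The region around the TATA box is shown for KRT34 and 3 neighbours in the hair cluster, bases 40 to 11 before the start on the minus strand, since KRT34 was the keratin that rose, with TATAAA in capitals; the positions are chr17:41382317-41382346, chr17:41369824-41369853, chr17:41350839-41350868 and chr17:41397619-41397648.
KRT34: aattaatggTATAAAaggactgcagaggaa
KRT33B: ctgctaacagaaTATAAAgccctggaaagg
KRT33A: catggacgaggTATAAAtgctccctggagg
KRT31: ctgcagtgggaTATAAAtgctccctagagg
All 4 genes carry the box, while KRT33A had 7 reads and KRT31 had 2 in all libraries.

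Of the other hair keratins, KRT86 fell in T24, to 0.379, 0.0910 and 0.150 CPM, against 0.775, 0.640 and 0.415 CPM untreated (-1.58 ± 0.50, adjusted p = 0.020), a call lost without treated replicate 3 or 4 or untreated replicate 1 (-1.23, -1.41 and -1.38, adjusted p up to 0.11). KRT81 in TCC-SUP, where it is abundant, had 666, 679 and 457 CPM after MMC and 802, 873 and 876 CPM untreated; the groups did not overlap and the gene missed the threshold (-0.50 ± 0.20, adjusted p = 0.084). KRT13, the mucosal keratin, fell in 5637 to 0.140, 0.256 and 0.253 CPM, against 1.98, 1.26 and 0.827 CPM untreated (-2.61 ± 0.62, adjusted p = 0.0024), from 3 to 6 treated and 18 to 39 untreated reads per library. KRT10 was not called in any line, with log2 fold changes from -0.22 to 0.22.

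Counted by separation alone, all treated libraries lay below all untreated ones for 4 keratins in T24 and above for 0, where 34.6% of all genes did not overlap. The count was 6 below and 2 above in 5637 (40.5% of all genes), 4 below and 1 above in TCC-SUP (37.7%) and 6 below and 0 above in CLS-439 (21.9%). Out of 26 tested keratins, these counts were below the share of all genes in T24, 5637 and TCC-SUP and near it in CLS-439. They are therefore not read as a result about keratins. In CLS-439 the 6 below were KRT2, KRT3, KRT4, KRT7, KRT85 and KRT86. KRT4 had 4.31, 2.48 and 1.61 CPM after MMC and 14.2, 7.03 and 6.39 CPM untreated there, just short of the threshold (-1.74 ± 0.40, adjusted p = 0.054), and KRT2 had 21.1, 15.5 and 16.7 CPM after MMC and 30.8, 22.98 and 26.5 CPM untreated (-0.60 ± 0.23, adjusted p = 0.48). KRT3 rested on 2 to 7 treated and 12 to 28 untreated reads per library (-1.89 ± 0.47, adjusted p = 0.0795). KRT7 had 1020, 1479 and 1394 CPM after MMC and 1646, 1971 and 1765 CPM untreated (-0.47 ± 0.29, adjusted p = 0.80).

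The labels state no pairing of replicate numbers. Replicate numbers were taken as pairs in 5637 and CLS-439 only because same-numbered libraries deviated together in these same data. The edgeR calls above come from the fit without this block, and a pass with the block is an alternative only. With the replicate number as a block, KRT4 in CLS-439 passed the test (-1.73 ± 0.23, adjusted p = 0.0029). In 5637 the 6 calls remained and KRT9, a keratin of palm and sole skin, was added as higher (1.64 ± 0.53, adjusted p = 0.027), at 0.688 ± 0.41 CPM after MMC and 0.211 ± 0.083 CPM untreated.

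The response differed among the 4 lines for 2 of 26 keratins, KRT19 (F test over the differences in edgeR, adjusted p = 0.0059) and KRT4 (adjusted p = 0.039), against 16% of all genes. For KRT19 the log2 fold change was higher in CLS-439 than in T24 by 2.98 ± 0.56 (adjusted p = 0.0015), the keratin called in that pair, where 10.1% of all genes were. It was higher in CLS-439 than in 5637 by 2.14 ± 0.56 (adjusted p = 0.017, with 9.02% of all genes called), a call lost without treated replicate 1 or untreated replicate 3 of CLS-439 (1.73 and 1.88, adjusted p = 0.088 and 0.062). The difference of KRT19 between CLS-439 and TCC-SUP was 2.02 ± 0.56 (adjusted p = 0.053), and with the replicate number as a block it passed the test (2.14 ± 0.52, adjusted p = 0.036). That block also covers TCC-SUP, where replicate numbers were not taken as pairs, so the pass is not relied on. KRT19 was scarce in CLS-439, so these differences rest on the few reads given above.

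KRT4 had a log2 fold change lower in CLS-439 than in TCC-SUP (-3.27 ± 0.80, adjusted p = 0.037, with 2.65% of all genes called), where TCC-SUP had only 5 to 17 treated and 2 to 6 untreated reads of it per library. That call was lost in 9 of 12 cases with 1 library of these lines left out (adjusted p up to 0.10), and held without treated replicate 4 of TCC-SUP or treated replicate 1 or untreated replicate 4 of CLS-439. The F test of KRT4 over the 4 lines lost its call in 9 of 24 cases (adjusted p up to 0.13). These were treated replicate 1 or 3 or untreated replicate 3 or 4 of TCC-SUP, treated replicate 3 or 4 or untreated replicate 1 of CLS-439, and untreated replicate 1 or 4 of 5637. Without the CLS-439 libraries, edgeR called 0 of 21 tested keratins as different in response among the other 3 lines, and 0 had an unadjusted p under 0.05. The share of all genes called in that fit is not given here, so the 0 cannot be set against it. In the fit of all libraries, edgeR also called 0 between 5637 and T24 (3.47% of all genes, 2 keratins at an unadjusted p under 0.05). It called 0 between TCC-SUP and T24 (3.79%, 1 keratin) and 0 between TCC-SUP and 5637 (2.7%, 3 keratins). KRT5, KRT13 and KRT34 were therefore not shown to respond differently from line to line. Without treated replicate 1 of T24, 5637 and TCC-SUP, 7 keratins differed (KRT7, KRT8, KRT15, KRT18, KRT19, KRT80 and KRT81), where 33.1% of all genes did. CLS-439 kept all its libraries there, so larger differences from it are built into that choice.

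Genes that work with keratins were counted from lists chosen for their role. Of 20 tested desmosome and hemidesmosome genes, which anchor keratin to the membrane, 1 rose and 3 fell in T24; 5637 had 2 higher with 3 lower, TCC-SUP 0 higher with 3 lower, CLS-439 0 higher with 0 lower. For this and the following lists, the share of all genes was 15.2% higher with 13.4% lower in T24, 15.9% with 13.6% in 5637, 9.57% with 11.1% in TCC-SUP and 0.298% with 0.322% in CLS-439. The desmosome and hemidesmosome genes called, 4 in T24, 5 in 5637 and 3 in TCC-SUP, were a smaller share than the 28.6%, 29.4% and 20.7% of all genes called. List medians on the log2 scale were -0.19, -0.35, -0.16 and 0.15, against 0.00 for all genes in each line. ITGA6, the integrin of the hemidesmosome, fell in T24 to 256 ± 34 CPM, against 1189 ± 325 CPM untreated (-2.21 ± 0.20, adjusted p = 2.6e-08), in 5637 to 506 ± 137 CPM, against 1789 ± 142 CPM (-1.82 ± 0.20, adjusted p = 3.3e-07), and in TCC-SUP (-0.99 ± 0.20, adjusted p = 0.00099). LAMB3, a laminin of the same anchor, rose in T24 (1.07 ± 0.17, adjusted p = 4.5e-05) and 5637 (0.88 ± 0.17, adjusted p = 0.00034). DSC2, a desmosomal cadherin, rose in 5637 (1.10 ± 0.19, adjusted p = 0.00012).

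Of 25 tested transcription factors known to act on keratin genes, 8 rose and 3 fell in T24; 5637 had 5 higher with 3 lower, TCC-SUP 1 higher with 3 lower, CLS-439 0 higher with 1 lower. The 8 called in 5637 were near the share of all genes called there (29.4%), the 11 in T24 above it (28.6%) and the 4 in TCC-SUP below it (20.7%). The medians were 0.40, 0.35, -0.08 and 0.15. TP63, the master factor of basal cells, fell in 5637 to 41.97 ± 18 CPM, against 122 ± 6.4 CPM untreated (-1.54 ± 0.27, adjusted p = 0.00014). PPARG, a factor of luminal urothelium, fell there too, to 45.7 ± 16 CPM, against 139 ± 9.9 CPM (-1.60 ± 0.25, adjusted p = 4.3e-05), and in TCC-SUP (-1.11 ± 0.25, adjusted p = 0.0030). SNAI1, a repressor of epithelial genes, rose in 5637 to 13.6 ± 8.1 CPM, against 0.664 ± 0.19 CPM (4.35 ± 0.46, adjusted p = 2.6e-07), and in T24 (2.82 ± 0.42, adjusted p = 2.3e-05). JUNB, an AP-1 subunit, rose in T24 (2.86 ± 0.30, adjusted p = 2.1e-07), and KLF4, an epidermal differentiation factor, in T24 (2.32 ± 0.26, adjusted p = 4.2e-07). The relation of these factors to the keratin changes was not tested.

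Of 13 tested intermediate filament genes that are not keratins, 2 rose and 3 fell in T24; 5637 had 3 higher with 4 lower, TCC-SUP 2 higher with 3 lower, CLS-439 0 higher with 0 lower. The share of all genes called was 28.6% in T24, 29.4% in 5637 and 20.7% in TCC-SUP, and the list medians were 0.00, 0.47, -0.21 and -0.30. SYNM, which encodes synemin, rose in T24 (1.31 ± 0.30, adjusted p = 0.0019) and 5637 (1.61 ± 0.31, adjusted p = 0.00035), and NES, which encodes nestin, in 5637 (1.95 ± 0.27, adjusted p = 8.6e-06) and TCC-SUP (0.96 ± 0.23, adjusted p = 0.0038). LMNB1, a lamin of the nuclear envelope, fell in T24 (-1.04 ± 0.15, adjusted p = 1.6e-05). Of 10 tested keratin binding genes, 3 rose and 1 fell in T24; 5637 had 2 higher with 1 lower, TCC-SUP 3 higher with 1 lower, CLS-439 0 higher with 0 lower. The 3 called in 5637 are about the share of all genes called there (29.4%), and T24 and TCC-SUP, each with 4, compare with 28.6% and 20.7%. The medians were 0.16, 0.12, 0.44 and 0.09. TCHH, trichohyalin of the hair follicle, rose in 5637 to 20.1 ± 9.0 CPM, against 4.69 ± 0.34 CPM (2.10 ± 0.31, adjusted p = 2e-05). FBF1, a keratin-binding protein of junctions and cilia, rose in T24 (1.39 ± 0.16, adjusted p = 9.1e-07), 5637 (1.76 ± 0.16, adjusted p = 3.6e-08) and TCC-SUP (0.86 ± 0.16, adjusted p = 0.00061).

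Of 14 tested cornified envelope genes, 1 rose and 0 fell in T24; 5637 had 4 higher with 3 lower, TCC-SUP 1 higher with 0 lower, CLS-439 0 higher with 0 lower. All genes were called at 28.6% in T24, 29.4% in 5637 and 20.7% in TCC-SUP, and the list medians were 0.00, 0.30, 0.11 and 0.03. In 5637, IVL, the envelope protein involucrin, fell to 2.08 ± 0.66 CPM, against 6.36 ± 0.74 CPM untreated (-1.62 ± 0.29, adjusted p = 0.00023). S100A8, a calcium-binding protein of inflamed epithelium, fell there to 0.361 ± 0.22 CPM, against 1.11 ± 0.51 CPM (-1.61 ± 0.51, adjusted p = 0.028). Both belong to the 3 lower genes of 5637, and the 4 higher ones are not named here. IVL and S100A8 therefore do not speak for the list, whose median in 5637 was positive.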

How the data were processed

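Counts of reads per gene were deposited by the authors in a single table, unscaled. STAR 2.5.3a, featureCounts 1.6.2 and build GRCh38 are named per the submitters' processing notes. Not given in the sources used here are the annotation release, how strand was set, and how reads with several matches were handled. Of 58381 gene IDs, 58216 were found in GENCODE 29, which gave symbols, coordinates and lengths.

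Counts were fitted in edgeR 4.0.16 (R 4.3.3) over all 24 libraries with 1 mean per group, after filterByExpr by group (20820 genes with 99.94% of the reads) and TMM scaling. The robust quasi-likelihood test was adjusted by Benjamini-Hochberg over all genes tested and called under 0.05; every adjusted p, and every SE of a log2 fold change, comes from such a fit, which was tested on simulated data. Other ± values are SDs over 3 libraries. CPM uses TMM-scaled library sizes, and CPM per kb the length of the principal transcript. No replicate pair had counts within sampling noise (the lowest chi-square per gene was 3.83).

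Alternatives were DESeq2 1.42.0, median-of-ratios size factors, no filter, each line alone, no CLS-439, no TMM factor, the length of all exons, near-identical genes summed, a replicate block and leaving out libraries. Same-numbered treated and untreated libraries correlated in their deviations at 0.28, 0.13 and 0.42 in 5637 and at 0.37, 0.26 and 0.13 in CLS-439 (replicates 1, 3 and 4), over 0.1 in each, and were taken as pairs there. The values were 0.40, -0.17 and 0.46 in T24 and 0.09, -0.03 and -0.18 in TCC-SUP, which were not. No pairing is stated in the labels, so this choice rests on these same data.

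Keratins at 1 CPM or more in a group were described one by one, and of each list at most the 3 called members with the largest change in a line. Members and lists were chosen with earlier results of these data known. The matching stretch of KRT86 and KRT81 is not reported here. Depth sets counting error only: a gene with few reads has wide errors, and its reads are given.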

Additional observations from a re-analysis of the deposited data

Results flagged for a closer look

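Differences of the response between lines passed the test for 2 keratins. The response of KRT19 differed among the 4 lines (edgeR's F test, adjusted p = 0.0059), and between CLS-439 and T24 (adjusted p = 0.0015) and CLS-439 and 5637 (adjusted p = 0.017). Its log2 fold change was 1.20 in CLS-439, -1.79 in T24 and -0.94 in 5637. The response of KRT4 differed among the 4 lines (adjusted p = 0.039) and between CLS-439 and TCC-SUP (adjusted p = 0.037), with log2 fold changes of -1.74 in CLS-439 and 1.53 in TCC-SUP. With 1 library left out, the first of these calls was lost in 9 of 24 cases and the second in 9 of 12. All of these differences involve CLS-439, whose libraries stood apart in mitochondrial and pseudogene reads, and the part of that in them was not tested.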

How the results depend on the processing

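Counts of keratins called after MMC are given below as higher and lower. The share of all genes called is not given for these settings, apart from the fit without treated replicate 1 described above. A change of count is therefore not read as a result about keratins. Without a filter on low counts T24 had 2 and 5, 5637 had 3 higher, TCC-SUP had 2 and 4, CLS-439 had 1 and 2, and 5 keratins differed in response among lines. With the replicate block there were 6 lower in T24, 2 higher in 5637, 2 and 4 in TCC-SUP and 1 lower in CLS-439. The block was set in every line, also in T24 and TCC-SUP, where replicate numbers were not taken as pairs. With each line fitted alone there were 0 higher in T24, 1 and 4 in TCC-SUP and 1 lower in CLS-439. DESeq2 called 4 lower in TCC-SUP and 1 lower in CLS-439. Without treated replicate 1 of T24, 5637 and TCC-SUP, chosen after seeing the data, there were 0 and 9 in T24, 1 and 6 in TCC-SUP, 2 lower in CLS-439 and 7 differing; without the CLS-439 libraries 0 differed. The cause was not tested. Leaving out 1 library at a time gave 0 to 2 higher and 2 to 9 lower in T24; for 5637 it gave 1 to 3 higher with 3 to 5 lower, for TCC-SUP 0 higher with 0 to 3 lower, for CLS-439 0 higher with 0 to 1 lower, and 1 to 3 differed. Median-of-ratios size factors left all 15 counts within 1.5 times. KRT6B in 5637 reversed when summed with KRT6A and KRT6C (log2 fold change -0.73), by construction, since KRT6A holds most of the reads. Of all other log2 fold changes recomputed, 1110 kept their side of the threshold, 48 newly passed it and 25 lost it. Direction was compared only where either fit passed the threshold, so values called in neither fit may have changed sign. Leaving out the TMM factor changed levels to between 0.898 and 1.14 of their value. With the length of all exons, 70 levels per kb moved by at least 1 SD and 74 by less. Among tested keratins, reads summed over all libraries were fewest for KRT3 (89), KRT9 (120), KRT85 (126) and KRT13 (154), and KRT19 was scarce in CLS-439.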
